A study of Mus musculus with 10 samples.

Results

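The genes described here are Ttc30b and Ift88 of intraflagellar transport and 8 genes named after Bardet-Biedl syndrome, Bbs1, Bbs2, Bbs4, Bbs5, Bbs7, Bbs9, Bbs10 and Bbs12. They were taken as every probe set annotated to 1 of these 10 symbols, which gave 15 of the 45037 probe sets that are not controls and 10 of the 18193 genes on the arrays. Bbs4 had 4 probe sets, Bbs7 and Bbs10 had 2 each and the other genes had 1. Ttc30b was chosen for its preshock difference in both fibroblast lines and Bbs10 for its preshock difference in KO-labelled cells, so those values are given as a description and without a test. The probe set with the highest mean stood for its gene, and 9 of the 10 genes were bright enough for the gene fit. Bbs1 was not, with a mean of 4.79 on the normalized log2 scale against a lowest mean of 5.65 among the 10915 genes tested.

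Transcript levels were read from Affymetrix mouse arrays hybridised with RNA of embryonic mouse fibroblasts, from a line labelled hsp70 (-/-) knockout, called KO-labelled, and from another that the labels give as (+/+) rescue, here rescue-labelled. There were 3 preshocked and 3 unheated KO-labelled arrays and 2 preshocked and 2 unheated rescue-labelled arrays. Preshocked cells were heated for 30 minutes at 43 °C by water bath after 20 hours of culture and were harvested 3 hours later, and unheated cells were harvested after 23 hours of culture. All cells were grown in DMEM with serum under a gas permeable seal, and each sample pooled the lysates of 144 wells. The series addresses thermotolerance in the 2 lines. Each genotype is 1 line, the labels do not say how the rescue was made, and separate cultures are not stated for the samples of 1 group. P-values here therefore measure the spread between these samples alone, which may be technical.

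The heat treatment and the labels were checked with Hspa1b, which encodes an inducible Hsp70. In the gene fit, on its probe set with the highest mean, its log2 differences after preshock were 6.81 in KO-labelled and 5.6 in rescue-labelled cells. The intensities that follow are from the Hspa1b probe set picked for the greatest rise in KO-labelled cells, so that rise is favoured by the choice. On it the intensity was 16853, 22815 and 29562 in KO-labelled preshocked arrays, against 63.2, 106 and 68.8 in KO-labelled unheated arrays. It was 36889 and 29210 in rescue-labelled preshocked arrays, against 262 and 196 in rescue-labelled unheated arrays. On this probe set the arrays labelled knockout therefore carried a strong Hspa1b signal after heat, which goes against their label. Whether this probe set lies in the deleted part is not stated, and the groups are named by label throughout. Median intensities lay between 50.7 and 73.7 in 8 arrays and at 100.4 and 107 in replicate 1 of the KO-labelled preshocked and replicate 3 of the KO-labelled unheated arrays, the pair numbered 5 and 6, which the first principal component (35.3% of the variance) set apart. The 10 fibroblast markers summed to 71688 to 119477 in the KO-labelled arrays and to 99807 to 110266 in the rescue-labelled arrays, while the 11 markers of motile multiciliated cells on the arrays summed to no more than 477, the 6 epithelial markers to no more than 979 and the 5 endothelial markers to no more than 488 in any array. The 5 leukocyte markers summed to no more than 838, the photoreceptor and neural markers to 2073 to 3995, and the markers of dividing cells to 28625 to 39186.

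The primary cilium is a single antenna-like extension that many cells, fibroblasts among them, grow from the mother centriole and use to receive signals such as Hedgehog. Proteins are carried along it by intraflagellar transport trains, in which complex B (IFT-B), with subunits such as IFT88 and the tetratricopeptide protein IFT70 (Ttc30), moves towards the tip. The BBSome, a coat-like complex of Bardet-Biedl proteins, rides on these trains and moves receptors in and out, and the chaperonin-like proteins MKKS, BBS10 and BBS12 help to assemble it together with the chaperonin TRiC.

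Genes of cilium proteins often carry an X-box, the site bound by RFX transcription factors, near their start, so the RefSeq promoter windows (GRCm38.p6, 250 bases before to 50 after the start) of these genes were read. Windows were listed for 9 of the 10 genes, all but Ttc30b. Part of the X-box, GTTGCCNNG, was searched on both strands and was found in 3 of the 9 windows, those of Ift88, Bbs1 and Bbs7, and in 5% of all 32851 windows. The 30 bases around each match are shown because they are the element that these genes share, with the match in capitals and each sequence read 5′ to 3′ along its own gene.
Ift88 (chr14:57424079-57424108, + strand, just after the annotated start): tggagtcgcgCCTGGCAACggctgggcgtc
Bbs1 (chr19:4906607-4906636, - strand, at the annotated start): ggctgagctgGTTGCCAAGgcgacgcctgg
Bbs7 (chr3:36613491-36613520, - strand, before the annotated start): atgcgccccgGTTGCCTTGgaaaccggcca
In Ift88 the match lies on the opposite strand, so the capitals show its reverse complement. None of these 3 genes was called after preshock in either line.

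The windows of Bbs10 and Bbs12 are shown because these partners in BBSome assembly were the members, besides Ttc30b, that were lower on their brightest probe sets in all 5 preshocked arrays than in their unheated partners. The 250 bases before the listed start are printed in lower case, since neither searched motif was present.
Bbs10 (chr10:111298429-111298678, + strand): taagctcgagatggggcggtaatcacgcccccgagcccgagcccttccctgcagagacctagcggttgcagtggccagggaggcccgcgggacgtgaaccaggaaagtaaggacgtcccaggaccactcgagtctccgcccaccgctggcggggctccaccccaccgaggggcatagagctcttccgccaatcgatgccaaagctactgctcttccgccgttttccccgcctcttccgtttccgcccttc
Bbs12 (chr3:37312304-37312553, + strand): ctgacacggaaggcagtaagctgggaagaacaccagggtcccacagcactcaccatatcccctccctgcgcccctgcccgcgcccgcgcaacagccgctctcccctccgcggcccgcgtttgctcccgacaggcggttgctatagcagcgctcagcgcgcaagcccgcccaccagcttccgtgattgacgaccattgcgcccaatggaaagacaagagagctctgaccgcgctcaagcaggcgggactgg
The other motif searched was GAANNTTC, the inverted pair of units in a heat shock element, also on both strands, and it was in 0 of the 9 windows and in 7.86% of all windows. No match of one pattern therefore overlapped a match of the other in these windows, and a missing match says only that the letters are not in this window.

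Ttc30b, the IFT70 subunit of IFT-B, was lower in every preshocked array than in every unheated array of its line. It is gene 72421 on chromosome 2 of GRCm38.p6, from 75935849 to 75938462. Its intensity was 75.5, 49 and 40.2 in KO-labelled preshocked arrays, against 137, 193 and 210.5 in KO-labelled unheated arrays. In rescue-labelled cells it was 69.1 and 66.5 in preshocked arrays, against 172 and 171 in unheated arrays. After quantile normalization the 2 states of a line were apart by more than the spread of their arrays. Intensities here and below are the deposited linear values, while levels, differences and their errors are on the log2 scale after quantile normalization. In bulk samples such as these, fewer cells of a type and less RNA per cell cannot be told apart.

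On the normalized log2 scale the Ttc30b level was 5.55 ± 0.028 in KO-labelled preshocked cells and 7.34 ± 0.14 in KO-labelled unheated cells (SD, n = 3 each). It was 6.36 ± 0.079 in rescue-labelled preshocked cells and 7.49 ± 0.062 in rescue-labelled unheated cells (SD, n = 2 each). The difference was -1.79 ± 0.12 (SE), 3.46-fold lower, in KO-labelled cells and -1.12 ± 0.15, 2.18-fold lower, in rescue-labelled cells. Both contrasts chose the gene. From low to high the order was preshocked KO-labelled, preshocked rescue-labelled, unheated KO-labelled and unheated rescue-labelled cells. The first 3 neighbours in this order did not overlap, while the unheated arrays of the lines did, at 7.26 to 7.50 in KO-labelled and 7.44 to 7.53 in rescue-labelled cells. On the deposited scaling these unheated groups changed places, with a log2 difference of 0.04 (KO-labelled minus rescue-labelled) against -0.15 after quantile normalization.

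**Figure D1:**
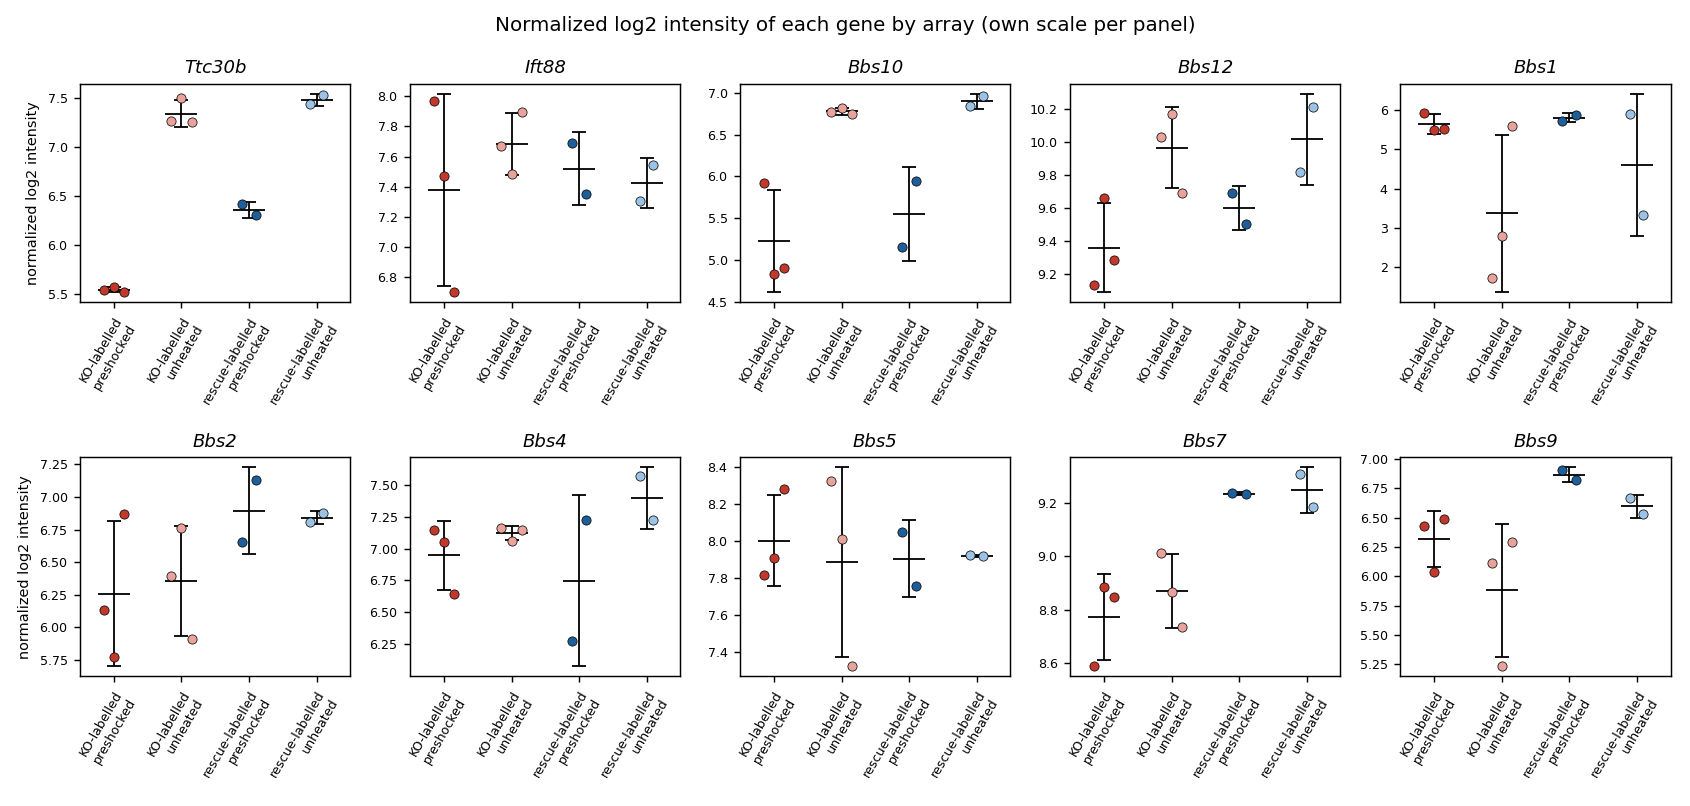
Normalized log2 intensity of each of the 10 genes in every array, with 1 panel a gene on its own scale. Points are arrays, KO-labelled in red and rescue-labelled in blue, with preshocked arrays in the darker shade, and bars are the group mean ± SD. Ttc30b is low in all 5 preshocked arrays, whereas the preshocked and unheated arrays of Bbs2, Bbs5 and Bbs7 overlap.

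Ttc30b has close copies, Ttc30a1 and Ttc30a2, on the same stretch of chromosome 2, and the sequences of the probes were not used here, so whether its probe set also reads them was not tested. Ttc30a1, a member of the same IFT70 family, had 77.4, 62.6 and 46 in KO-labelled preshocked arrays, against 96.7, 125 and 169 in KO-labelled unheated arrays. It had 20.6 and 58 in rescue-labelled preshocked arrays, against 79.6 and 86.5 in rescue-labelled unheated arrays. It too was lower in all 5 preshocked arrays than in their partners, but its log2 differences of -1.07 ± 0.32 and -1.17 ± 0.39 (SE) did not pass in limma's fit over all genes (adjusted p = 0.164 in KO-labelled and 0.368 in rescue-labelled cells). The probe sets of Ttc30a2 were dim, with no intensity above 52.0 in any array.

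Bbs10, which encodes a chaperonin-like protein of BBSome assembly, was also lower after preshock, less evenly than Ttc30b. It is gene 71769 on chromosome 10, from 111298679 to 111301736, with the promoter shown above. On its brighter probe set the intensity was 96, 28.8 and 26.6 in KO-labelled preshocked arrays, against 94.6, 124 and 161 in KO-labelled unheated arrays. It was 28.2 and 50.3 in rescue-labelled preshocked arrays, against 105 and 110 in rescue-labelled unheated arrays. The 96 came from replicate 1, one of the 2 bright arrays, and on the deposited scale it overlapped the unheated arrays, which it did not after normalization.

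The Bbs10 level averaged 5.22 ± 0.61 in KO-labelled preshocked cells and 6.78 ± 0.036 in KO-labelled unheated cells (log2, SD, n = 3 each), a difference of -1.55 ± 0.31 (SE) or 2.93-fold, in the contrast that chose it. It averaged 5.55 ± 0.56 in rescue-labelled preshocked cells and 6.90 ± 0.090 in rescue-labelled unheated cells (SD, n = 2 each). That difference, -1.35 ± 0.38 (SE), was not called in limma's fit over all genes (adjusted p = 0.277). The spread among preshocked arrays was wide in both lines. The preshocked levels of the lines overlapped, and both unheated groups lay above them, KO-labelled at 6.74 to 6.82 and rescue-labelled at 6.84 to 6.96.

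The second Bbs10 probe set gave 76.2, 6.48 and 71 in KO-labelled preshocked arrays, against 90.5, 104 and 117 in KO-labelled unheated arrays. It gave 38 and 31.8 in rescue-labelled preshocked arrays, against 101 in each rescue-labelled unheated array. Its log2 differences were -1.57 in KO-labelled and -1.36 in rescue-labelled cells, so both probe sets were lower after preshock, but on this one a single dim array, replicate 2, carried most of the KO-labelled difference.

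Bbs12, the partner of Bbs10 among the chaperonin-like genes (gene 241950, chromosome 3, 37312547 to 37321450), had a smaller difference that varied less between pairs than that of Bbs10. Its intensity was 594, 783 and 563 in KO-labelled preshocked arrays, against 1038, 1170 and 869 in KO-labelled unheated arrays. It was 777 and 742 in rescue-labelled preshocked arrays, against 952 and 1196 in rescue-labelled unheated arrays. No preshocked array reached the lowest unheated array of its line. The level was 9.36 ± 0.27 in KO-labelled preshocked and 9.97 ± 0.25 in KO-labelled unheated cells (log2, SD, n = 3 each), and 9.60 ± 0.13 in rescue-labelled preshocked and 10.02 ± 0.28 in rescue-labelled unheated cells (SD, n = 2 each). The lines overlapped in each state. The log2 difference was -0.60 ± 0.20 (SE), 1.52-fold lower, in KO-labelled cells, and limma's fit did not call it (adjusted p = 0.219). With the pairs of arrays as a block it was called (adjusted p = 0.0285). In rescue-labelled cells it was -0.42 ± 0.24, not called with or without the block (adjusted p = 0.785 without it).

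Ift88, the IFT-B core subunit whose mutation causes the Oak Ridge polycystic kidney mouse (gene 21821, chromosome 14, 57424064 to 57517936), did not pass the test in either line. Its intensity was 291, 176 and 90.3 in KO-labelled preshocked arrays, against 186, 191 and 295 in KO-labelled unheated arrays. It was 178 and 149 in rescue-labelled preshocked arrays, against 154 and 173 in rescue-labelled unheated arrays. The groups overlapped in both lines. The log2 differences were -0.30 ± 0.30 and 0.10 ± 0.37 (SE, limma's adjusted p = 0.879 in KO-labelled and 1 in rescue-labelled cells), and 1 array, replicate 3 of the KO-labelled preshocked ones, lay lowest of all 10.

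The BBSome members did not pass the test in either line. Bbs9, which holds the BBSome core together, was the 1 member higher in all 5 preshocked arrays than in their partners. It had 128, 67 and 77.6 in KO-labelled preshocked arrays, against 59.7, 45.3 and 127 in KO-labelled unheated arrays. It had 99.4 and 98.6 in rescue-labelled preshocked arrays, against 90.9 and 77.8 in rescue-labelled unheated arrays. Its log2 differences were 0.44 ± 0.27 and 0.27 ± 0.33 (SE, limma's adjusted p = 0.643 in KO-labelled and 1 in rescue-labelled cells).

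Bbs4, which links the BBSome to the centriolar satellite protein PCM1, was read by 4 probe sets. On the brightest it had 186, 133 and 86.2 in KO-labelled preshocked arrays, against 127, 145 and 198 in KO-labelled unheated arrays. There it had 61.9 and 135 in rescue-labelled preshocked arrays, against 190.5 and 135 in rescue-labelled unheated arrays. The log2 differences were -0.18 ± 0.25 and -0.65 ± 0.31 (SE, limma's adjusted p = 0.966 and 0.644). On all 4 probe sets the mean was lower after preshock in both lines, by differences from -0.55 to -0.18 in KO-labelled and from -0.67 to -0.39 in rescue-labelled cells. Each was lower in 4 of the 5 pairs, and of all genes tested 39.3% were lower in 4 or 5 pairs. None of the 4 probe sets was called.

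Bbs2, Bbs5 and Bbs7 did not pass it either, with differences near 0. Bbs2 and Bbs7 form, with Bbs9, the core that the chaperonin-like proteins build, and Bbs5 carries domains that bind phosphoinositides. Their log2 differences in KO-labelled cells were -0.10 for Bbs2, 0.12 for Bbs5 and -0.10 for Bbs7. In rescue-labelled cells they were 0.05 for Bbs2, -0.02 for Bbs5 and -0.01 for Bbs7, and limma's adjusted p was 0.964 or more for each of the 6 values.

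Bbs7 differed between its probe sets. The bright one lay at 403 to 455 in KO-labelled preshocked arrays, against 481 to 497 in KO-labelled unheated arrays, and these overlapped after normalization. The dim one had 16.4, 3.7 and 14.5 in KO-labelled preshocked arrays, against 21.6, 20 and 36.2 in KO-labelled unheated arrays. It had 1.8 and 1.56 in rescue-labelled preshocked arrays, against 16.4 and 28 in rescue-labelled unheated arrays. It was lower in all 5 pairs, by -3.88 to -0.62. Its log2 differences of -1.33 ± 0.55 in KO-labelled and -3.55 ± 0.67 in rescue-labelled cells (SE) were not called over all probe sets in limma's fit (adjusted p = 0.726 and 0.286), and values this close to the floor of 1 are little above no signal.

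Bbs1, the BBSome subunit that binds the small GTPase ARL6, was too dim for the gene fit and scattered. Its intensity was 96.9, 46.1 and 40.1 in KO-labelled preshocked arrays, against 2.75, 8.66 and 83.6 in KO-labelled unheated arrays. It was 41.9 and 47.6 in rescue-labelled preshocked arrays, against 49.2 and 7.14 in rescue-labelled unheated arrays. In the fit over all probe sets its log2 differences were 2.28 ± 1.02 and 1.20 ± 1.25 (SE, limma's adjusted p = 0.780 and 1). The unheated arrays spread widely, with an SD of 2.01 in KO-labelled and 1.81 in rescue-labelled cells (log2).

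**Figure D2:**
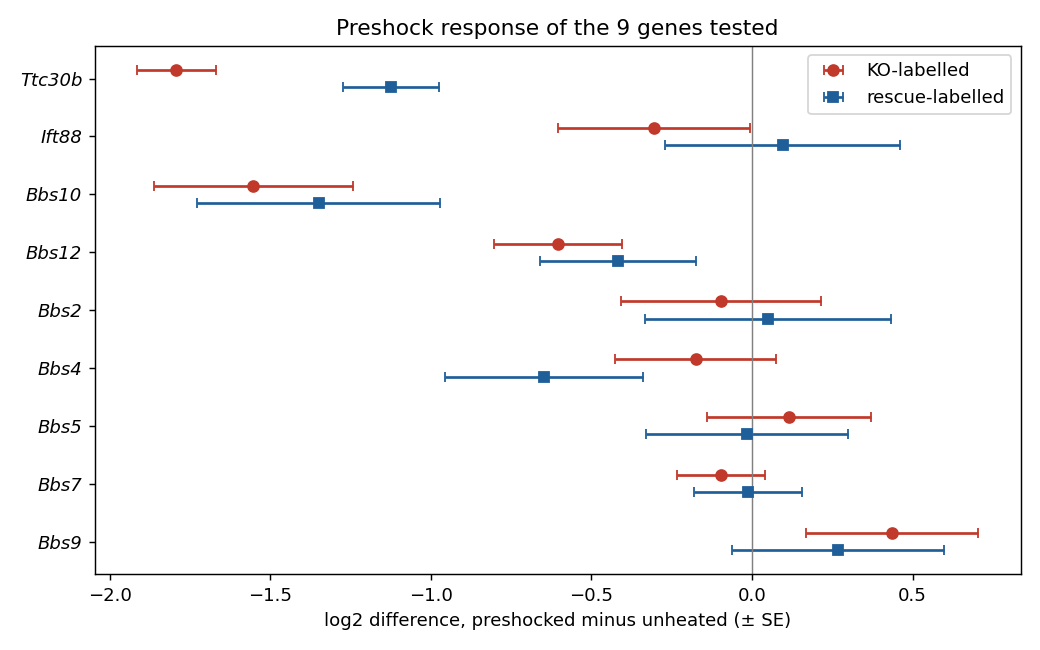
Log2 difference of preshocked minus unheated cells for the 9 genes tested, in KO-labelled (circles) and rescue-labelled cells (squares), with bars of ± SE from the limma fit. Ttc30b and Bbs10 lie below -1 in both lines, and the BBSome members scatter around 0.

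In KO-labelled cells 193 of the 10915 genes tested, 1.77%, were called in limma's fit at an adjusted p under 0.05, and 0.825% were called lower. Of the 9 members tested 2 were called lower, Ttc30b and Bbs10, which were chosen for it, so nothing is read from that count. With the pairs as a block 999 genes, 9.15%, and 3 members were called. Arrays of the groups did not overlap, with the preshocked ones lower, for 3 of the 9 members (Ttc30b, Bbs10 and Bbs12) and for 10.7% of all genes. These counts also hold Ttc30b and Bbs10, so nothing is read from them. In rescue-labelled cells 0.357% of genes were called, 0.0825% lower, and Ttc30b, chosen on this contrast too, was the 1 member among them. With the block 164 genes, 1.5%, were called, against 39 without it. Preshocked arrays lay below all unheated ones for 4 of the 9 members (Ttc30b, Bbs10, Bbs12 and Bbs4) and for 22.3% of all genes. Nothing is read from that count either, since it holds the chosen Ttc30b. Bbs4 counts here by a narrow margin, 7.224 against 7.226 (log2) in its nearest arrays, and on the deposited intensities those arrays lay in the other order, at 135.34 in the preshocked and 135.29 in the unheated one. Over all 45037 probe sets without a filter 0.06% were called in KO-labelled and 0.0244% in rescue-labelled cells. Of the 15 probe sets of the members, that of Ttc30b in KO-labelled cells was among them.

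Each preshocked array had an unheated partner with the adjoining number. The paired differences of Ttc30b were -1.72, -1.92 and -1.74 in the KO-labelled pairs and -1.11 and -1.14 in the rescue-labelled pairs. Those of Bbs10 were -0.82, -1.98 and -1.86 in the KO-labelled pairs and -1.81 and -0.89 in the rescue-labelled pairs. Those of Bbs12 were -0.56, -0.51 and -0.74 in the KO-labelled pairs and -0.52 and -0.31 in the rescue-labelled pairs. After quantile normalization the Ttc30b pairs fell into narrow ranges by line, whereas the Bbs10 pairs of both lines spread over the same range. This is a description, since these values also chose the genes. Of the genes tested, 22% were lower and 12.6% higher in all 5 pairs. Among the 9 members, read on their brightest probe sets, Ttc30b, Bbs10 and Bbs12 were lower in all 5 pairs and Bbs9 was higher in all 5. Ttc30b and Bbs10 were chosen on preshock contrasts of these arrays, so nothing is read from the count of lower members.

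**Figure D3:**
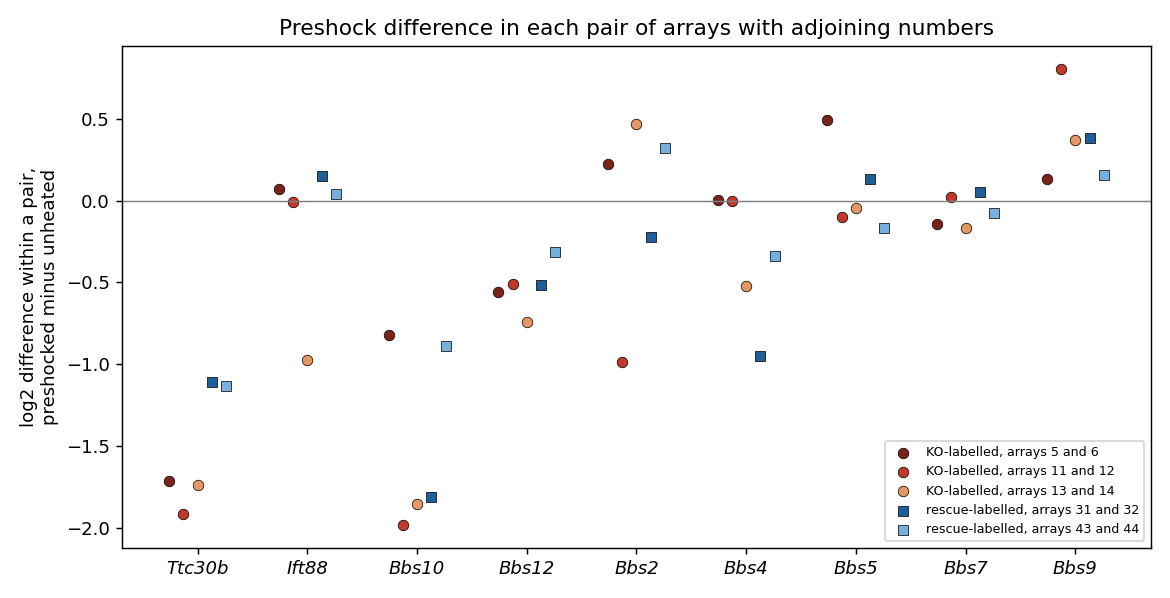
Log2 difference of the preshocked minus the unheated array within each of the 5 pairs with adjoining numbers, for the 9 genes tested (circles, KO-labelled pairs; squares, rescue-labelled pairs). Ttc30b, Bbs10 and Bbs12 lie below 0 in every pair, and Bbs9 lies above 0 in every pair.

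Whether the response differed between the lines was tested as KO-labelled minus rescue-labelled response. In limma's fit 0% of the 10915 genes and none of the 9 members were called, and 1 member, Ttc30b, had an unadjusted p under 0.05, as did 0.944% of all genes. Its difference of -0.67 ± 0.19 on the log2 scale (SE) is given as a description, since it is built from the 2 contrasts that chose the gene. It was -0.40 on the deposited scaling and -0.33 with array medians set equal. After quantile normalization all 3 KO-labelled pairs lay below both rescue-labelled pairs. The differences of the other 8 members ranged from -0.40 for Ift88 to 0.47 for Bbs4.

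The lines themselves were compared at each state. All KO-labelled arrays are numbered 5 to 14 and all rescue-labelled arrays 31 to 44. Line therefore cannot be told apart from anything else that differed between these sets of arrays. Values below the floor of 1 numbered 155 to 446 in KO-labelled arrays and 650 to 970 in rescue-labelled arrays. In unheated cells 0.421% of genes were called in limma's fit, and with the pairs as a random block 22 in place of 46. None of the 9 members was called, and 2 had an unadjusted p under 0.05, against 12.9% of all genes. Bbs9 differed by -0.72 ± 0.30 and Bbs7 by -0.38 ± 0.15 (KO-labelled minus rescue-labelled, SE, adjusted p = 0.368 and 0.359 in limma's fit). KO-labelled arrays lay below all rescue-labelled ones for 5 of the 9 members (Bbs2, Bbs4, Bbs7, Bbs9 and Bbs10) and for 14.9% of all genes. The Bbs10 difference of -0.12 turned to 0.20 on the deposited scaling. On their brightest probe sets the 7 tested BBSome subunits were all below 0, with a median of -0.38 against 0.02 over all genes. Of these, 6 stayed below 0 on the deposited scaling or without the pair numbered 5 and 6. The exception, Bbs5, was at 0.13 on the deposited scaling and at 0.25 without that pair. On the deposited scaling the median of the BBSome was -0.26, against 0.04 over all genes. With array medians set equal the median of all genes moved to -0.50 and that of the BBSome to -0.81. After quantile normalization a dimmer Bbs4 probe set lay at 0.30, and the other Bbs4 probe sets lay from -0.88 to -0.22. In the gene fit the subunit with the greatest difference was Ttc8, also known as Bbs8, at -0.78 ± 0.15 (SE, adjusted p = 0.101 in limma's fit). None of the 7 was called, and 3 had an unadjusted p under 0.05.

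In preshocked cells 0.339% of genes were called, 37 in all and 16 with the block. None of the 9 members was called, and 2, Ttc30b and Bbs7, had an unadjusted p under 0.05, against 14.1% of all genes. Ttc30b was at 5.55 ± 0.028 in KO-labelled (SD, n = 3) and 6.36 ± 0.079 in rescue-labelled cells (SD, n = 2). The difference of -0.81 ± 0.14 (SE) was not called, although the arrays did not overlap. It is given as a description, since these preshocked arrays entered the contrasts that chose the gene. On the deposited scaling it was -0.35, and the preshocked arrays of the lines overlapped there. Bbs7 differed by -0.46 ± 0.15 on its bright probe set (SE, adjusted p = 0.259 in limma's fit). On its dim probe set the difference was 1.86 ± 0.61 (SE), of the other sign. It was not called over all probe sets (adjusted p = 0.541 in limma's fit). KO-labelled arrays lay below all rescue-labelled ones for 3 of the 9 members (Ttc30b, Bbs7 and Bbs9), against 16.6% of all genes. The counts here that hold Ttc30b are no support for it.

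The rest of the cilium machinery was described by lists. In KO-labelled cells 4 of the 100 tested genes of 10 cilium lists were called lower after preshock and none higher, against 0.825% of all genes called lower, and their median was -0.09 against -0.04 over all genes. The count was 2 on the deposited scaling, 1 with array medians set equal and 1 to 5 without single arrays. With the block 10 were called lower and 3 higher, against 5.82% and 3.33% of all genes. The 4 were Ttc30b, Bbs10, Traf3ip1 and Rfx5, the first 2 of which had been chosen on this contrast. With the block Bbs12, Tctn3, Nde1, Gli3, Sufu and Rfx1 joined them, and Iqcb1, Aurka and Hdac6 were called higher. In rescue-labelled cells 1 was called lower, Ttc30b, and 3 with the block (Ttc30b, Rfx1 and Cep290), against 0.0825% and 0.77% of all genes, with a median of -0.09 against -0.03 over all genes. Ttc30b was chosen on the rescue-labelled contrast too, so nothing is read from these rescue-labelled counts.

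Of the 17 tested IFT-B genes 2 were called lower in KO-labelled cells, Ttc30b and Traf3ip1, against 0.825% of all genes, and the median was -0.06. Ttc30b was chosen on this contrast, so nothing is read from that count. Traf3ip1, which encodes the IFT-B subunit IFT54, was at 7.79 in preshocked and 8.53 in unheated KO-labelled cells, lower by -0.74 ± 0.13 (log2, SE, adjusted p = 0.0340 in limma's fit). It was at 8.10 in preshocked and 8.91 in unheated rescue-labelled cells, a difference of -0.81 ± 0.16 that was not called (adjusted p = 0.104). Its call in KO-labelled cells held under 2 of 19 other settings, with adjusted p from 0.0222 to 0.744. None of the 6 IFT-A genes (median 0.03), the 9 motor genes (median -0.01) or the 7 BBSome genes (median -0.05) was called, and none of them had an unadjusted p under 0.05 in limma's fit, against 12.8% of all genes. The median of IFT-A was -0.08 on the deposited scaling, and that of the motors was 0.03 with array medians set equal, each of the other sign.

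Among the 3 chaperonin-like genes Bbs10 was called in KO-labelled cells, the contrast that chose it, and under 4 of 19 other settings. Bbs12 was called there with the block alone. Mkks, whose protein joins them in BBSome assembly, had -0.10 ± 0.14 in KO-labelled and -0.09 ± 0.17 in rescue-labelled cells (log2, SE). The 8 genes of TRiC, the general cytosolic chaperonin, had differences from -0.09 to 0.11 in KO-labelled cells with a median of 0.01, and none was called or had an unadjusted p under 0.05. Their median was 0.12 on the deposited scaling and 0.20 with array medians set equal, with 0 of 8 below 0 in both, against -0.07 and 0.01 over all genes. No gene of the 15 of the transition zone, the gate at the base of the cilium, was called, and 2 had an unadjusted p under 0.05. Tctn3 of that gate had -1.22 ± 0.25 in KO-labelled cells (SE, adjusted p = 0.0610 in limma's fit, 0.0107 with the block). Iqcb1, whose protein nephrocystin-5 lies at the base of the cilium, had 0.60 ± 0.22 (SE, adjusted p = 0.284, 0.0319 with the block).

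The 15 ciliary signalling genes had a median of -0.31 in KO-labelled cells with 12 of 15 below 0, and none was called, while 1 had an unadjusted p under 0.05. Sufu, an inhibitor of Hedgehog signalling, had -0.56 ± 0.12 (SE, adjusted p = 0.0617 in limma's fit, 0.0317 with the block). Of the 4 tested genes listed as ciliary transcription factors, Rfx5 was called lower, at 6.58 in preshocked and 7.79 in unheated KO-labelled cells (-1.21 ± 0.18, SE, adjusted p = 0.0170). Rfx5 is known as an activator of MHC class II genes rather than for cilia. Its call held under 12 of 19 other settings, with adjusted p from 0.0158 to 0.283. Rfx1, another factor of this family, had -0.62 ± 0.15 (SE), not called without the block (adjusted p = 0.0951 in limma's fit) and called with it (adjusted p = 0.0248). The other BBS genes (7 tested, median -0.14) and the basal body and ciliogenesis genes (20 tested, median -0.06) had no gene called. None of the other BBS genes and 5 of the 20 basal body genes had an unadjusted p under 0.05, against 12.8% of all genes. With the block the deacetylase gene Hdac6 and the mitotic kinase gene Aurka were called higher and Nde1 lower (adjusted p = 0.0296, 0.0319 and 0.0353 in the blocked limma fit). Their differences were 0.65 ± 0.23, 0.45 ± 0.13 and -0.58 ± 0.24, with the SE from the fit without the block.

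**Figure D4:**
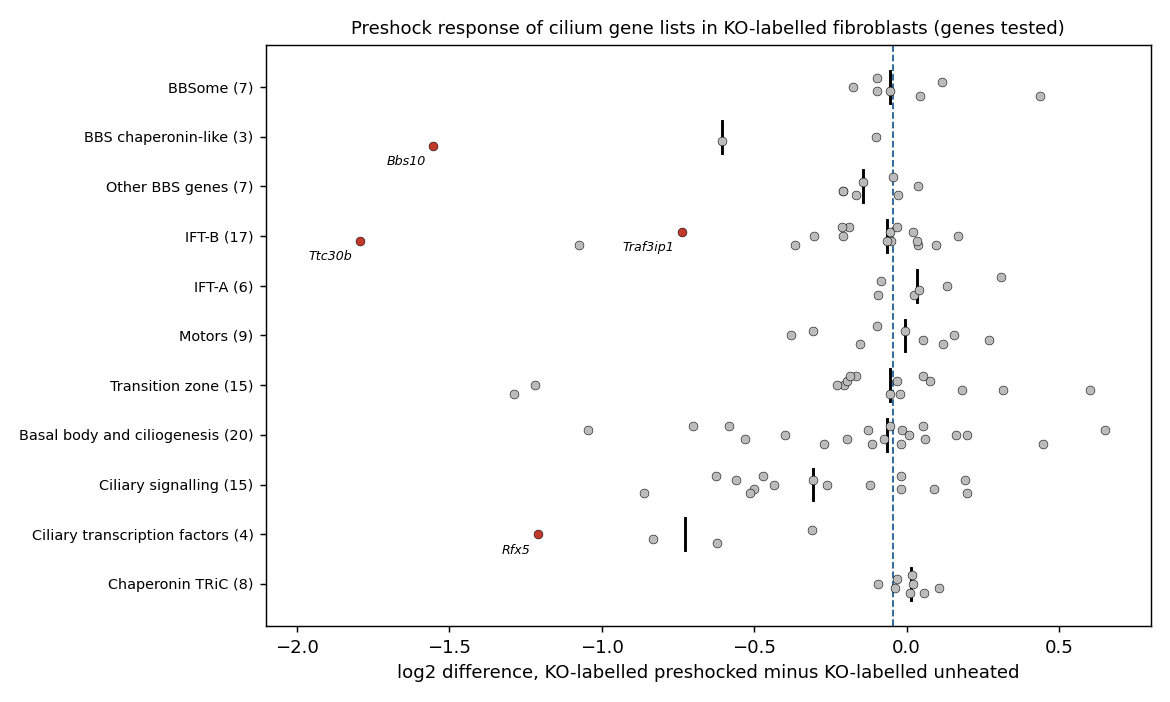
Log2 difference of KO-labelled preshocked minus KO-labelled unheated cells for every tested gene of 11 lists (points; the number tested is in brackets), with the median of each list (black bar) and of all genes tested (dashed line, -0.04). Red points are the 4 genes called at an adjusted p under 0.05, and the TRiC genes lie within 0.11 of 0 after quantile normalization.

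Across the 10 arrays the pattern of Ttc30b was most like those of Wars2 (Pearson r = 0.977), Pdik1l (0.966), Pxdn (0.964), Zfp697 (0.963) and Zfp748 (0.956), out of 10915 genes. That of Bbs10 was most like those of Tprn (0.971), AI837181 (0.966), Patz1 (0.963), Lrch3 (0.961) and Irf2bp1 (0.960). These values are descriptions over arrays that share the preshock contrast. Over deviations from the group means, r ran from -0.08 to 0.51 for the genes most like Ttc30b. It ran from 0.78 to 0.93 for those most like Bbs10. All 10 genes had lower means after preshock in both lines, by -1.04 to -0.30 in KO-labelled cells and by -1.11 to -0.21 in rescue-labelled cells, given without a test since likeness to the 2 members chose them. Between members, r was 0.888 for Ttc30b and Bbs10, 0.854 for Ttc30b and Bbs12 and 0.643 for Bbs10 and Bbs12, while Ttc30b and Ift88, both of IFT-B, had 0.231. Preshock contrasts of these arrays chose Ttc30b and Bbs10, so nothing is read from these r values.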

How the data were processed

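The values analysed are the intensity table that the authors deposited, with linear values for each probe set in each array. Software and array scaling are not given in the sources used here, and after trimming 2% at each end every array averaged 500.003 to 500.004. Array medians differed by 1.08 on the log2 scale, so values were set to at least 1 (4935 were lower), log2 transformed and quantile normalized. Of 45101 probe sets 64 controls were left out, 34945 had 1 gene symbol in the platform annotation, 932 several and 9160 none. Precision is limited by the number of arrays, and no measure of signal over background came with the table.

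The probe set with the highest mean stood for its gene, and the 60% of 18193 genes with the highest means were tested. One limma model (version 3.58.1, R 4.3.3, statmod 1.5.0) with 4 group means and 6 residual degrees of freedom gave 5 comparisons, adjusted by Benjamini and Hochberg over all 10915 genes and called under 0.05, and the same model was run over all probe sets. It was tested on simulated data. The members and lists were chosen with earlier results of these data known. Named are all members, the 5 genes most like Ttc30b and Bbs10, and up to 4 called genes of each list. The copies of Ttc30b, Ttc8, Mkks, Tctn3, Sufu and the genes called with the block alone fall outside that rule and were added after values were seen. Genome positions and promoters are from RefSeq.

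Arrays with adjoining numbers in the labels deviated together from their group means, with correlations of 0.721, 0.376, 0.552, 0.370 and 0.370 over the 5 pairs (with 2 arrays a group, the last 2 are bound to be equal), so they were treated as pairs in the blocked fit, a fixed block within a line and a random one (correlation 0.716) between lines. Other settings tried were the deposited scaling, equal array medians, no filter, the mean of probe sets, a floor of 16, a robust prior, the groups of a comparison alone, and leaving out single arrays or the pair numbered 5 and 6.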

Additional observations from a re-analysis of the deposited data

How the results depend on the processing

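Ttc30b and Bbs10 were chosen on preshock contrasts, so only their differences are given: over the 19 other settings that of Ttc30b ran from -1.83 to -1.66 in KO-labelled and from -1.34 to -1.07 in rescue-labelled cells, and that of Bbs10 in KO-labelled cells from -1.92 to -1.36. The counts below that hold these genes are no support for them. In KO-labelled cells 2 members were called, against 1 with the deposited scaling, equal array medians, no filter, the mean of probe sets, a robust prior or only the groups of the comparison, and 1 to 2 without single arrays. In rescue-labelled cells 1 was called, against 0 with the deposited scaling, equal medians, no filter, a robust prior or only its own groups, and 0 to 1 without single arrays. Of the cilium list genes 4 were called lower in KO-labelled cells, against 2 with the deposited scaling or the mean of probe sets, 1 with equal medians, no filter or only its own groups, 10 with the block and 1 to 5 without single arrays, with 1 without KO-labelled preshocked replicate 2 or KO-labelled unheated replicate 1 or 2. In rescue-labelled cells the 1 became 0 to 3. In the other comparisons 0 members were called under every setting run.

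The counts over all genes moved further. After preshock 193 genes were called in KO-labelled cells, against 28 with equal medians, 28 without a filter, 101 with the mean of probe sets, 44 with only its own groups, 112 without the pair numbered 5 and 6, and 42 to 139 without single arrays. In rescue-labelled cells the 39 became 7 with equal medians, 10 without a filter, 1 with only its own groups, 78 without that pair and 10 to 56 without single arrays. For the difference of responses the 0 became 1 without a filter and 0 to 1 without single arrays. Between unheated lines the 46 became 10 without a filter, 20 with the mean of probe sets, 0 with only its own groups, 85 without that pair and 3 to 43 without single arrays. Between preshocked lines the 37 became 22 with equal medians, 6 without a filter, 9 with the mean of probe sets, 3 with only its own groups, 58 without that pair and 0 to 37 without single arrays. With the replicate block, which pairs adjoining numbers, the counts were 999 in KO-labelled and 164 in rescue-labelled cells after preshock, and 22 and 16 between unheated and preshocked lines; beside Bbs12 it changed no other call of a member in the gene fit. The share of higher calls after preshock in KO-labelled cells was 53.4%, against 89.3% with equal medians and 36.4% with the block; in rescue-labelled cells it was 76.9%, against 100% and 48.8%. Between lines it was 73.9% in unheated and 70.3% in preshocked cells, against 40.6% and 31.8% with equal medians. Of the members' probe sets 1 was called, against 0 with the deposited scaling, equal medians, the block or any single array left out, the last chosen after seeing the data, and 3 with the higher floor. Where 1 rescue-labelled array was left out, its lone partner was assumed to vary like the other groups. Why these counts moved was not tested, beyond fewer arrays and more genes tested. No summary file gave signal over background, which limits Bbs1, Ttc30a2 and the dim probe set of Bbs7.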
